A study of Sus scrofa with 20 samples.

Results

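Serotonin receptors were examined in the hypothalamus of adult German Landrace pigs. All probe sets that the platform annotation assigned to HTR1A, HTR1B, HTR1D, HTR2A, HTR2B, HTR2C, HTR4, HTR6 or HTR7 were taken, dim ones included. Of these 9 genes, 7 were matched by 8 of the 47845 probe sets on the array, with 2 probe sets for HTR2C and 1 for each other gene. The probe sets were SNOWBALL_018852_st for HTR1A, SNOWBALL_002382_st for HTR1B, SNOWBALL_013858_st for HTR2A, SNOWBALL_018411_st for HTR2B, SNOWBALL_020412_st for HTR2C probe set 1, SNOWBALL_028966_st for HTR2C probe set 2, SNOWBALL_041206_st for HTR6 and SNOWBALL_017412_st for HTR7. HTR1D and HTR4 had no probe set under these symbols and were not analysed here. The 20 arrays held RNA of 10 high-reactive (HR) and 10 low-reactive (LR) animals, 1 Affymetrix Porcine Snowball array each. The study chose the animals both by coping behaviour, scored in a restraint test of piglets, and by their haplotype in a region of chromosome 12, so behaviour and haplotype cannot be told apart between the groups. Sex and hybridisation batch are not given in the labels. A replicate number only names an array.

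Serotonin receptors are membrane proteins through which serotonin, released in the forebrain mainly by raphe neurons of the brainstem, acts on its target cells. Apart from the HTR3 ion channels, all are coupled to G proteins. The HTR1 receptors act through Gi/o and lower cAMP, the HTR2 receptors act through Gq and phospholipase C, and HTR4, HTR6 and HTR7 act through Gs and raise cAMP. In the hypothalamus they are known for their part in feeding, body temperature, circadian timing and the release of stress hormones.

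For none of the 8 receptor probe sets did the difference between HR and LR animals pass the test. In limma's test 0 of 8 passed the adjusted threshold, beside 0 of 47722 probe sets in all (0%). At an unadjusted p under 0.05, 0 of 8 passed, beside 2180 of 47722 (4.57%), of which 1054 were higher and 1126 lower in HR animals. Of the receptors, 5 probe sets had a higher and 3 a lower mean in HR animals, with a median difference of 0.01 on the log2 scale, beside 0.02 over all probe sets. The 95% intervals of the 8 differences all lay within a 1.5-fold change in either direction. The smallest unadjusted p belonged to HTR7, which averaged lower in HR animals. The tissue was excised hypothalamus and not sorted cells, so fewer cells of a type and less RNA per cell cannot be told apart.

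**Figure D1:**
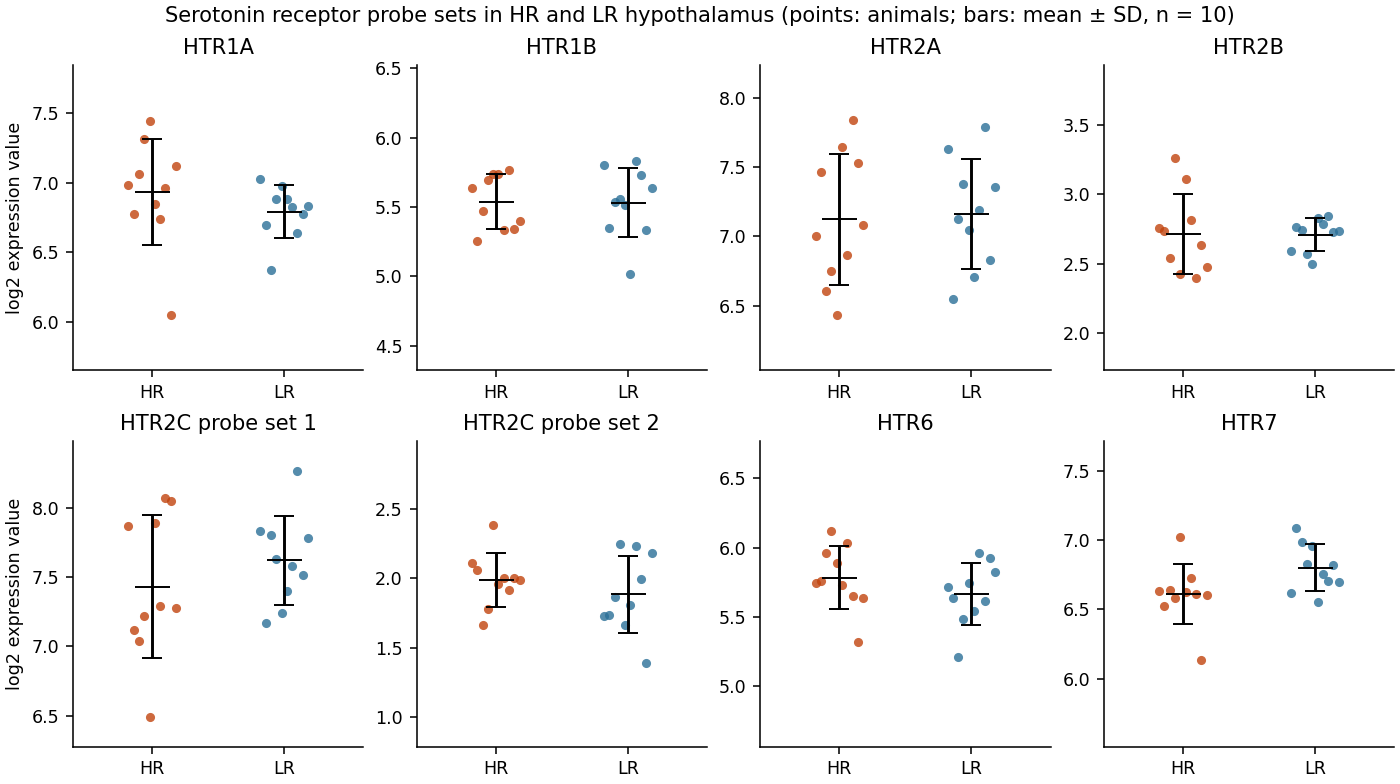
Log2 expression values of the 8 serotonin receptor probe sets, with HR animals left of LR animals. Each point is 1 animal and the bars give the mean ± SD (n = 10 per group). Every panel spans the same number of log2 units, and the groups overlapped in all 8. The low HTR1A point of 6.05 is HR replicate 9.

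All values are on the log2 scale, so a difference of 1 is a doubling. Since probes differ in how well they bind, the level of 1 probe set was not set against that of another. For each array, the number of the 69 background control probe sets that lay below a receptor was counted instead. These controls match no known transcript and cover a range of base compositions, and the base composition of the receptor probes was not used here, so the number describes a signal and is no detection call. Of the 8 receptor probe sets, 6 lay among the 50% of probe sets with the higher mean values, and HTR2B and HTR2C probe set 2 did not.

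HTR1A, the Gi/o-coupled receptor that acts as autoreceptor on raphe neurons and as postsynaptic receptor in the forebrain, ranged between 6.05 and 7.45 in HR animals with a median of 6.97, against 6.37 to 7.03 with a median of 6.83 in LR animals. HR replicate 9 lay below all LR animals, while HR replicates 5, 4, 10 and 3 lay above all of them. It averaged 6.93 ± 0.38 in HR animals and 6.79 ± 0.19 in LR animals (SD, n = 10 each), a difference of 0.14 ± 0.13 (SE; unadjusted p = 0.310, adjusted p = 0.923 in limma). Whether the spread itself differed between the groups was not tested. The 95% interval of the difference was -0.14 to 0.42. Without HR replicate 9 the difference was 0.24, at an unadjusted p of 0.0338 and an adjusted p of 0.629, and without HR replicate 5 it was 0.08. On every array, 48 to 60 of the 69 background controls lay below HTR1A.

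HTR1B, the Gi/o-coupled receptor of axon terminals that limits transmitter release, ranged between 5.25 and 5.77 in HR animals (median 5.55), against 5.02 to 5.83 in LR animals (median 5.55). The HR animals thus lay within the LR range. The means were 5.54 ± 0.20 in HR animals and 5.53 ± 0.25 in LR animals, a difference of 0.01 ± 0.11 (interval -0.21 to 0.23, adjusted p = 0.996 in limma). The lowest value was that of LR replicate 6. Between 42 and 48 background controls lay below it on each array.

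Among the Gq-coupled receptors, HTR2A, known in cortex as the target of hallucinogens, ranged between 6.43 and 7.84 in HR animals (median 7.04), against 6.55 to 7.79 in LR animals (median 7.16). Both groups spread over more than 1 log2 unit and overlapped almost fully. The means were 7.12 ± 0.47 in HR animals and 7.16 ± 0.39 in LR animals, a difference of -0.04 ± 0.18 (interval -0.42 to 0.34, adjusted p = 0.985 in limma). HR replicate 5 was the lowest and HR replicate 8 the highest of all 20.

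HTR2B, a Gq-coupled receptor best known from heart valves and the gut, was dim, with 28 to 36 of the 69 background controls below it. It ranged between 2.40 and 3.26 in HR animals (median 2.68), against 2.50 to 2.84 in LR animals (median 2.74). HR replicates 4 and 6 lay above all LR animals, and HR replicates 8, 5 and 10 lay below all of them. The means of 2.72 ± 0.29 in HR animals and 2.71 ± 0.12 in LR animals did not differ detectably (0.00 ± 0.10, adjusted p = 0.998 in limma).

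HTR2C, the Gq-coupled receptor that in mice acts on appetite through proopiomelanocortin neurons, was the only gene with 2 probe sets. Probe set 1 ranged between 6.49 and 8.07 in HR animals (median 7.28), against 7.17 to 8.26 in LR animals (median 7.61). HR replicates 5, 3 and 2 lay below all LR animals, and LR replicate 8 lay above all HR animals. The means were 7.43 ± 0.52 in HR animals and 7.62 ± 0.32 in LR animals, a difference of -0.19 ± 0.18 (interval -0.57 to 0.19, unadjusted p = 0.307, adjusted p = 0.923 in limma). Without HR replicate 5 the difference was -0.09, and without HR replicate 8 it was -0.26.

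HTR2C probe set 2 was dim on every array and did not follow probe set 1. It ranged between 1.67 and 2.38 in HR animals (median 1.995), against 1.39 to 2.25 in LR animals (median 1.84), with 14 to 30 background controls below it. Its mean was 1.99 ± 0.19 in HR animals and 1.88 ± 0.28 in LR animals, a difference of 0.10 ± 0.11 (interval -0.13 to 0.33, adjusted p = 0.927 in limma). Without LR replicate 9 it was 0.05, and without HR replicate 5 it was 0.06. The difference thus had the opposite sign to that of probe set 1, and over the 20 arrays the probe sets were uncorrelated (r = -0.02). Averaged per gene, HTR2C differed by -0.04. Which transcripts the probe sets detect was not tested.

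Of the Gs-coupled receptors, HTR6, a receptor found mainly in the brain, ranged between 5.32 and 6.12 in HR animals (median 5.75), against 5.21 to 5.96 in LR animals (median 5.68). HR replicates 4, 7 and 3 were the highest, and LR replicate 3 and HR replicate 9 the lowest. The means were 5.78 ± 0.23 in HR animals and 5.67 ± 0.22 in LR animals, a difference of 0.12 ± 0.11 (interval -0.10 to 0.34, unadjusted p = 0.283, adjusted p = 0.921 in limma).

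HTR7, a Gs-coupled receptor that in rodents is prominent in thalamus and hypothalamus and takes part in circadian timing and body temperature, ranged between 6.14 and 7.02 in HR animals (median 6.62), against 6.55 to 7.08 in LR animals (median 6.79). Only 1 of the 10 HR animals, replicate 5, lay above the LR mean, and HR replicates 9 and 2 lay below all LR animals. The other 8 HR animals lay within the LR range. HTR7 averaged 6.61 ± 0.22 in HR animals and 6.80 ± 0.17 in LR animals, a difference of -0.19 ± 0.10 and a fold of 0.877 (interval 0.764 to 1.01). Its unadjusted p was 0.0602 and its adjusted p 0.916 in limma, so the difference did not pass. Without HR replicate 9 the difference was -0.14, and without LR replicate 3 it was -0.17. Without HR replicate 5 it was -0.24 (unadjusted p = 0.0160 in limma), without LR replicate 6 -0.22 (0.0368) and without LR replicate 1 -0.21 (0.0461), and the adjusted p stayed above the threshold in each of these fits.

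**Figure D2:**
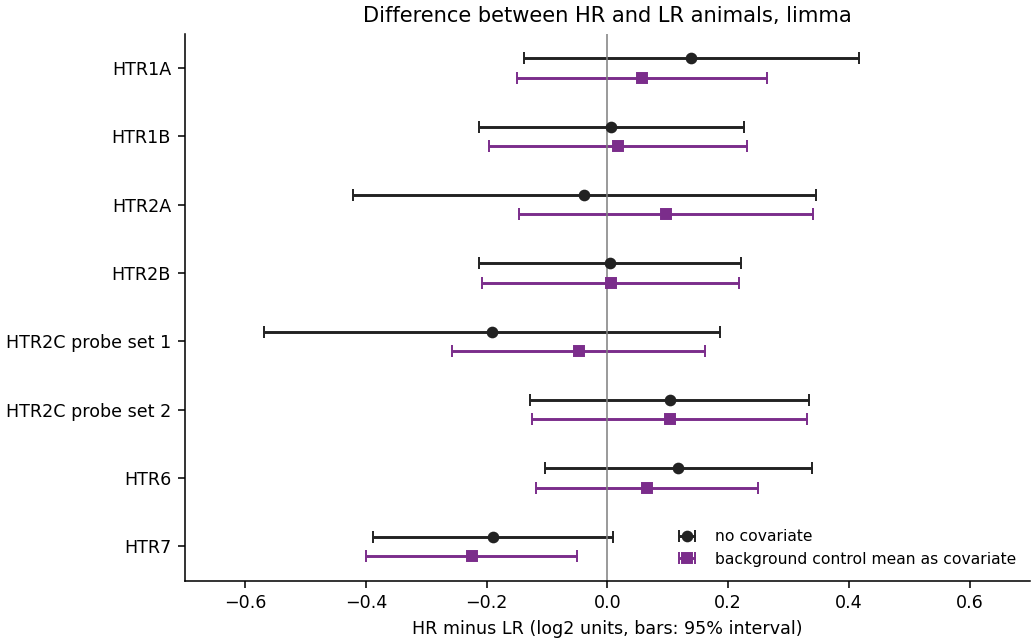
Differences between HR and LR animals (HR minus LR, log2 units) with their 95% intervals in limma, without a covariate (circles) and with the background control mean of each array as a covariate (squares). Only the HTR7 interval with the covariate, -0.40 to -0.05, leaves out 0, and its adjusted p was 0.741.

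The receptors also varied among animals of the same group, and part of this variation moved with the background signal of the array. The mean of the background controls was 4.09 ± 0.26 in HR animals (3.73 to 4.44) and 4.01 ± 0.17 in LR animals (3.68 to 4.22), a difference of 0.08 (permutation p = 0.398, two-sided, n = 10 each). Over the 20 arrays it correlated at |r| over 0.5 with 4 of the 8 receptor probe sets, beside 60.3% of all probe sets, so such a relation is common on these arrays. Correlations were computed for 116 relations, namely 8 with the background, 28 between receptor probe sets and 80 with cell type lists, and their p-values were adjusted over these.

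HTR2C probe set 1 was lower on arrays with a higher background (r = -0.87, rho = -0.85, permutation p = 1e-05, the smallest that could be had, adjusted p = 0.000387), with r = -0.86 within HR and -0.88 within LR animals and -0.81 without the 2 arrays farthest from the median background. HTR2A behaved alike (r = -0.80, rho = -0.81, permutation p = 4e-05, adjusted p = 0.00058), with -0.92 within HR, -0.62 within LR and -0.71 without those 2 arrays. HTR1A ran the other way (r = 0.72, rho = 0.61, permutation p = 0.00024, adjusted p = 0.00278), with 0.75 within HR, 0.61 within LR and 0.65 without those 2 arrays. HTR6 rose with the background as well (r = 0.62, rho = 0.52, permutation p = 0.00414, adjusted p = 0.0229), although its rank correlation did not pass after adjustment (adjusted p = 0.0977). HTR7 (r = 0.33), HTR1B (-0.13), HTR2C probe set 2 (0.04) and HTR2B (-0.01) showed no relation that passed.

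**Figure D3:**
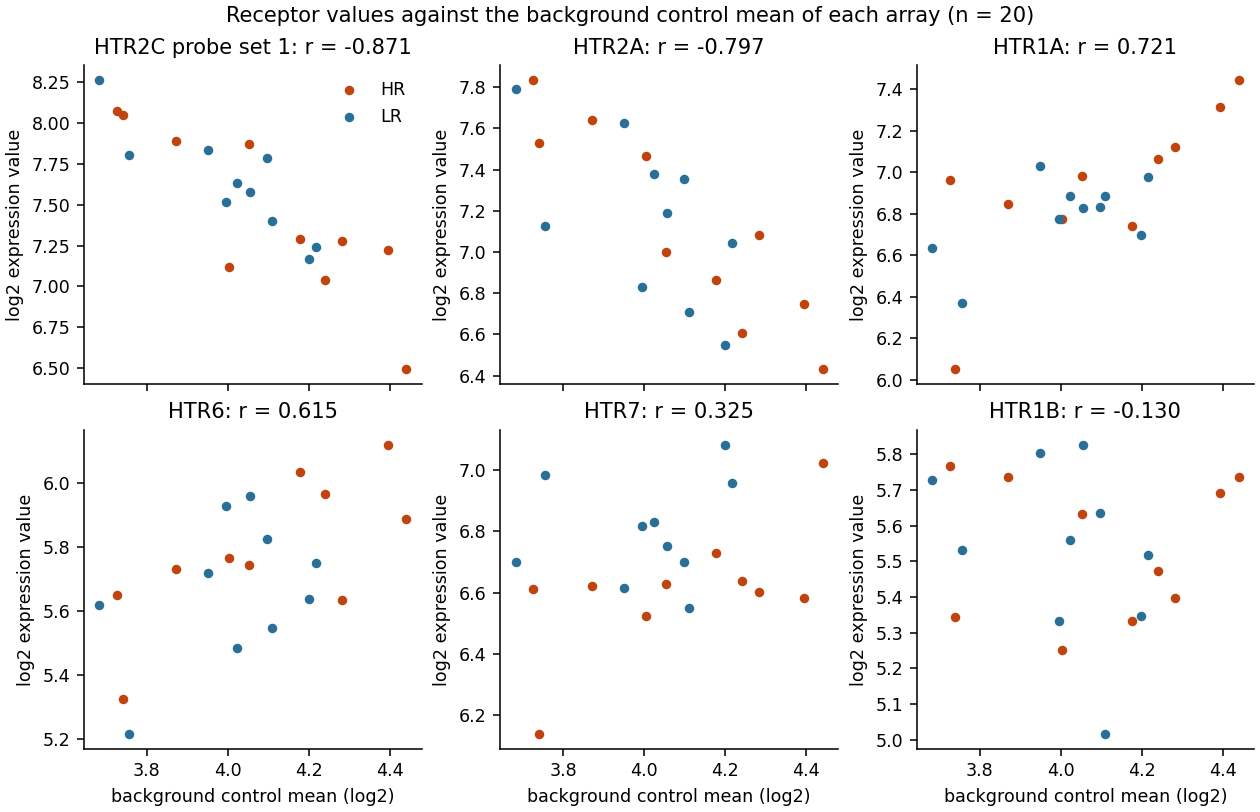
Log2 values of 6 receptor probe sets against the background control mean of the same array. Points are animals, HR in orange and LR in blue (n = 20). HTR2C probe set 1 and HTR2A fall along the axis with r = -0.87 and -0.80, HTR1A and HTR6 rise with r = 0.72 and 0.62, and HTR7 and HTR1B show no such trend that passed.

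With the background control mean as a covariate, the share of the within-group variance left was 25.1% for HTR2C probe set 1, 35.3% for HTR2A, 49.8% for HTR1A, 64.5% for HTR6 and 77.2% for HTR7. The difference of HTR2C probe set 1 was then -0.05 ± 0.10, that of HTR1A 0.06 ± 0.10 and that of HTR6 0.07 ± 0.09. HTR2A turned from a lower to a higher mean in HR animals (0.10 ± 0.12, adjusted p = 0.866 in limma). HTR7 differed by -0.23 ± 0.08, at an unadjusted p of 0.0142 and an adjusted p of 0.741 in limma. It was the only one of the 8 probe sets at an unadjusted p under 0.05 in this fit, beside 3156 of 47722 probe sets (6.61%). Leaving out each array in turn as well, which was chosen after seeing the data, gave HTR7 differences of -0.26 to -0.17 and an unadjusted p under 0.05 in 19 of 20 fits, the exception being without HR replicate 9 (p = 0.0525). The smallest adjusted p among them was 0.601.

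Between receptors, 3 of 28 pairs of probe sets correlated at |r| over 0.5 across the animals. The share over all pairs of probe sets was not computed, so this count does not set the receptors apart. HTR2A and HTR2C probe set 1 moved together (r = 0.80, rho = 0.78, permutation p = 2e-05, adjusted p = 0.000464), within HR (0.79) and within LR animals (0.86), and with r = 0.73 without the 2 arrays of the most extreme HTR2A values. With group means and background removed, r was 0.38. HTR1A and HTR6 correlated at 0.63 (rho = 0.36, permutation p = 0.00274, adjusted p = 0.0159), and at 0.33 with the background removed. HTR1A and HTR2C probe set 1 correlated at -0.57 (rho = -0.39, permutation p = 0.00897, adjusted p = 0.0416), and at 0.19 with the background removed. In both pairs with HTR1A the rank correlation did not pass (adjusted p = 0.371 and 0.330).

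With the background removed, 1 of 28 pairs had an |r| over 0.5, the Gi/o-coupled HTR1A and HTR1B at 0.60, against 0.32 before. This count, too, has no share over all pairs beside it. HTR1A and HTR7 correlated at 0.83 within HR animals and at -0.45 within LR animals. The HR value rests in part on replicates 9 and 5, which were lowest and highest for both genes, and over all 20 arrays r turned from 0.29 to -0.53 without the 2 arrays of the most extreme HTR1A values. Over all 8 probe sets, the median r was 0.13 over 8 pairs within a G protein class and -0.01 between classes. With the background removed it was 0.19 in both. Most pairs within a class hold the dim HTR2B or HTR2C probe set 2, and 1 of them is the 2 probe sets of HTR2C. The remaining ones were HTR2A with HTR2C probe set 1 (0.80), HTR1A with HTR1B (0.32) and HTR6 with HTR7 (0.10). With the background removed these were 0.38, 0.60 and -0.04. Whether classes differ was not tested.

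**Figure D4:**
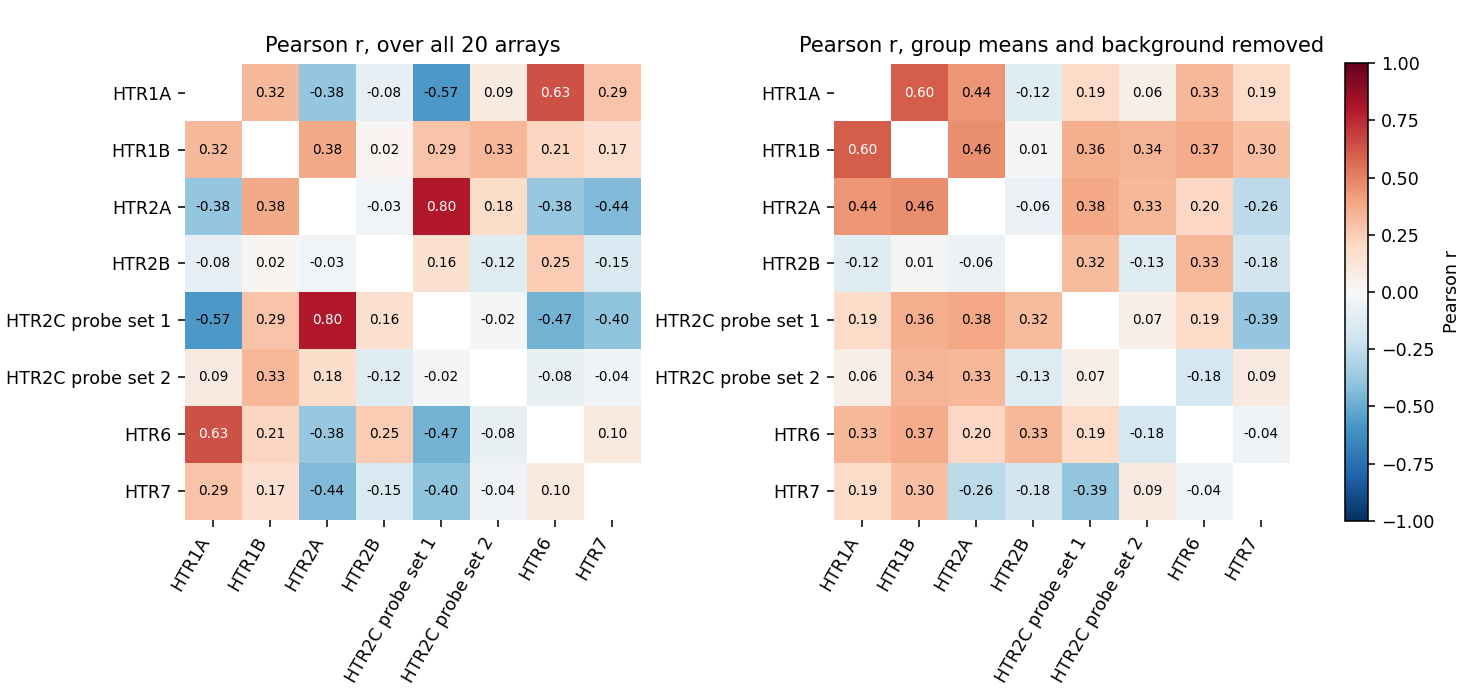
Pearson correlations between the 8 receptor probe sets over the 20 arrays, as measured (left) and after removing group means and the background control mean (right). The block of HTR2A with HTR2C probe set 1 has r = 0.80 on the left and 0.38 on the right, while HTR1A with HTR1B has 0.32 and 0.60.

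The genes whose values ran most like a receptor's were sought among the 50% of probe sets with the higher mean values, on deviations from the group means. They are the extremes of a search over very many probe sets and are given as a description, with no test. For HTR2C probe set 1 the closest was GNG2, a G protein gamma subunit, at r = 0.95, and at 0.81 with the background removed, followed by GLCE and RAB9B, or by CNR1, the cannabinoid receptor, and GLCE with the background removed. HTR1A ran closest with ATG13, an autophagy gene, at 0.93 and 0.89, then with TPRG1L and TMCC2, or TPRG1L and PER1, a circadian clock gene. For HTR2A these were TGFB2, SLC7A14 and NSUN3 at 0.91 to 0.89, and with the background removed CHST3, MARCKS and LY86 at 0.82 to 0.80. HTR7 ran with MGST3 (0.86), POLDIP2 and ATP5B, and with the background removed with ARL6IP5 (0.84), MGST3 and POLE4. HTR6 ran with LOC100153205 (0.86), SYNPO and CBR2, or with FRAS1 (0.85), LOC100153205 and CD86. HTR1B had COL21A1, GPI and PCDH19 at 0.66, and PIGS, PLD3 and FADS6 at up to 0.87 with the background removed. The dim HTR2B had MIR874, FSTL1 and WDFY2 at up to 0.76, or MIR874, CCDC107 and MGA.

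The rest of the serotonin pathway was read from 6 lists, with the probe set of highest mean for each gene. Among 13662 genes, 207 (1.52%) were higher and 387 (2.83%) lower in HR animals at an unadjusted p under 0.05, 0 passed after adjustment, and the median difference was 0.01. Of the other serotonin receptors 5 of 9 were measured and 0 passed in either direction (median difference -0.01). HTR3B, a subunit of the serotonin-gated ion channel, was 3.11 ± 0.17 in HR and 3.28 ± 0.34 in LR animals (-0.17 ± 0.12). HTR1F, a Gi/o-coupled receptor, differed by 0.14 ± 0.12 and HTR3A, the channel's obligatory subunit, by 0.10 ± 0.09. Single arrays moved these values, with HTR3B at -0.083 without LR replicate 5, HTR3A at 0.048 without LR replicate 3 and HTR1F at 0.21 without HR replicate 5.

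Of the genes of serotonin supply and removal 8 of 11 were measured and 0 passed in either direction, with a median difference of 0.08, and of -0.02 with the background covariate. MAOA, the monoamine oxidase that breaks down serotonin, was 8.87 ± 0.43 in HR and 9.15 ± 0.15 in LR animals (-0.28 ± 0.14, unadjusted p = 0.0609, adjusted p = 0.916 in limma). SLC18A2, the vesicular monoamine transporter, differed by 0.11 ± 0.11 and SLC29A4, a plasma membrane monoamine transporter, by 0.12 ± 0.12. Without LR replicate 3 these were 0.040 and 0.067, and MAOA was at -0.30 (unadjusted p = 0.0492 in limma). In the 20 fits that left out 1 array MAOA differed by -0.35 to -0.19, with an unadjusted p under 0.05 in 4. The serotonin transporter SLC6A4, which marks serotonin neurons, was at 4.29 ± 0.37 in HR and 4.27 ± 0.29 in LR animals.

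Downstream of the receptors, 0 of 16 measured Gi/o signalling genes of 18 passed in either direction (median difference -0.08), and GNAO1, the alpha subunit of Go, KCNJ3, a potassium channel that Gi/o opens, and GNAI2, a Gi alpha subunit, differed by -0.09 ± 0.07, -0.17 ± 0.15 and 0.12 ± 0.12. Without LR replicate 3 KCNJ3 differed by -0.075 and GNAI2 by 0.036. In the Gs and cAMP list 0 of 20 measured of 23 passed (median 0.00). PDE4B, a phosphodiesterase that degrades cAMP, was 8.39 ± 0.66 in HR and 8.80 ± 0.30 in LR animals (-0.41 ± 0.21), and PRKAR1A and PRKACB, subunits of protein kinase A, differed by -0.25 ± 0.18 and -0.46 ± 0.33. Without HR replicate 5 these were -0.14 for PRKAR1A and -0.26 for PRKACB. For Gq and phospholipase C 0 of 15 measured of 19 passed (median -0.08, and 0.06 with the background covariate), with DGKG at -0.17 ± 0.10, PRKCE at -0.10 ± 0.07 and PLCB2 at 0.17 ± 0.13, or at 0.10 without LR replicate 3. In the 20 fits that left out 1 array, PDE4B was at an unadjusted p under 0.05 in 4 and DGKG in 1.

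Among 25 partners and regulators of the receptors, 19 were measured, 0 were higher and 2 lower in HR animals at an unadjusted p under 0.05, and 0 passed after adjustment (median -0.06). Of all genes 1.52% were higher and 2.83% lower at this level, and the other pathway lists held 0 such genes. The 2 genes are given as a description, with no test of the list. Both encode regulators of G protein signalling, which speed the return of G proteins to the inactive state. RGS2 ranged between 6.71 and 8.13 in HR animals, against 7.50 to 8.22 in LR animals, and averaged 7.61 ± 0.43 in HR and 7.95 ± 0.25 in LR animals (-0.34 ± 0.15, unadjusted p = 0.0353, adjusted p = 0.916 in limma). RGS7 ranged between 5.86 and 7.92 in HR animals, against 6.87 to 8.73 in LR animals, and averaged 7.09 ± 0.66 in HR and 7.62 ± 0.53 in LR animals (-0.53 ± 0.25, unadjusted p = 0.0426, adjusted p = 0.916 in limma). The groups overlapped for both genes, and the RGS7 probe set is of a kind that can bind several transcripts. Those of HTR1F, SLC18A2, KCNJ3, NEFH, FLT1 and TTR, among others named here, are of the same kind. RGS2 and RGS7 each stayed at an unadjusted p under 0.05 in 11 of the 20 fits that left out 1 array, and without LR replicate 3 RGS7 differed by -0.41 (p = 0.0923). RGS4 differed by -0.57 ± 0.32 (unadjusted p = 0.0848). RGS7 correlated with the background control mean at -0.85 and RGS2 at -0.44. The part of the background in the differences was not tested beyond the covariate, under which RGS7 differed by -0.33 ± 0.13 and RGS2 by -0.29 ± 0.14. In that fit only 1 of the 19 genes, RGS7, was at an unadjusted p under 0.05, beside 6.61% of all probe sets.

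**Figure D5:**
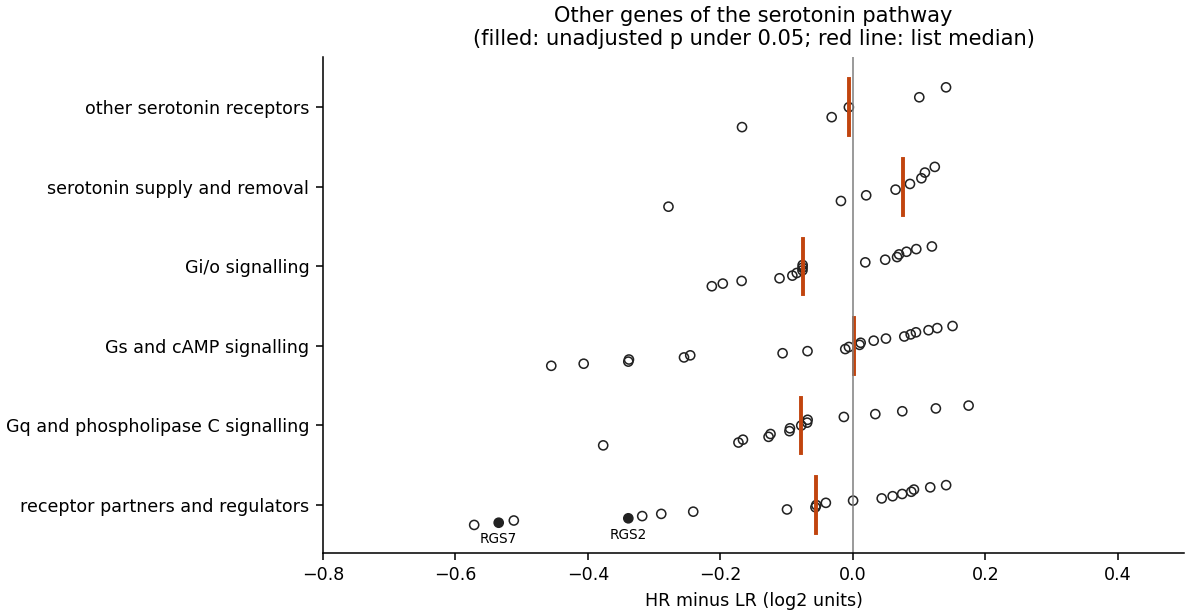
Differences between HR and LR animals (HR minus LR, log2 units) of the measured genes in the 6 serotonin pathway lists. Each circle is a gene, filled where its unadjusted p is under 0.05, and the red lines are list medians, which lie between -0.08 and 0.08. Only RGS2 and RGS7 are filled, and their adjusted p was 0.916.

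The label of the tissue was checked against marker lists. Of 22 hypothalamic markers 20 were measured, and the levels of some peptide genes among them are given without setting 1 gene against another. OXT, the oxytocin gene, was at 11.93 ± 0.53 in HR and 11.91 ± 0.25 in LR animals and PMCH, the melanin-concentrating hormone gene, at 9.54 ± 0.61 in HR and 9.57 ± 0.34 in LR animals. CRH, the corticotropin-releasing hormone gene, was at 5.99 ± 0.24 in HR and 5.95 ± 0.19 in LR animals and AGRP, an appetite peptide gene, at 5.52 ± 0.46 in HR and 5.43 ± 0.60 in LR animals. The array medians were 5.14 to 5.26, and the distance of a value from them is no call of expression. LR replicate 3 stood apart, with a mean of 7.70 over 10 thalamic markers, beside 6.68 to 7.02 on the other 19 arrays, and had the lowest mean over the hypothalamic markers, which was at least 7.59 on the others. On that array HTR1A (6.37) and HTR6 (5.21) were the lowest of the LR animals, and HTR7 (6.98) was among the highest. Without it HTR1A differed by 0.09, HTR6 by 0.07 and HTR2C probe set 1 by -0.17, and 0 of the 8 probe sets passed at the unadjusted level. HR replicate 9, lowest for HTR1A, HTR6 and HTR7 among HR animals, had the lowest mean of the 20 arrays over the striatal and pallial markers (6.03), the lowest of the HR animals over the hypothalamic markers (7.59), and the highest of the 20 over the ependymal and tanycyte (7.09) and choroid plexus markers (6.25). Without it HTR6 differed by 0.17. Correlations between arrays over all probe sets were between 0.887 and 0.989.

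The hypothalamic list and lists of other cell types and neighbouring regions were set beside the receptors across the 20 animals. The mean of 8 striatal and pallial markers followed HTR1A (r = 0.86, rho = 0.66, permutation p = 1e-05, adjusted p = 0.000387), at 0.93 within HR and 0.69 within LR animals, 0.81 without the 2 arrays of the most extreme list means, and 0.70 with the background removed. In that list 6 of the 8 markers rose with the background control mean, while PDE10A (r = -0.73) and NEUROD6 (-0.17) did not. HTR1A followed the hypothalamic list too (r = 0.71, rho = 0.64, permutation p = 0.00114, adjusted p = 0.00882). There r was 0.81 within HR animals, 0.76 within LR animals and 0.28 with the background removed. The mean of 8 astrocyte markers followed HTR2C probe set 1 (r = 0.89, rho = 0.90, permutation p = 1e-05, adjusted p = 0.000387), at 0.88 within HR and 0.94 within LR animals, 0.87 without the 2 arrays of the most extreme list means, and at 0.44 with the background removed. The astrocyte markers did not run together, since AQP4 (r = -0.94), SLC1A2 (-0.95), SLC1A3 (-0.88) and GJA1 (-0.91) were lower on arrays with a higher background, whereas GFAP (0.61), ALDH1L1 (0.80) and AGT (0.65) were higher. HTR2C probe set 1 also followed the ependymal and tanycyte list (r = 0.79, rho = 0.84, permutation p = 3e-05, adjusted p = 0.00058), with 0.82 within HR, 0.71 within LR, 0.79 without the 2 most extreme arrays and 0.42 with the background removed. Likewise it followed the neuron list (r = 0.76, rho = 0.80, permutation p = 0.00017, adjusted p = 0.00219), with 0.82 within HR, 0.62 within LR, 0.73 without the 2 most extreme arrays and 0.02 with the background removed. HTR2C probe set 1 ran against the striatal and pallial list (r = -0.78, permutation p = 4e-05, adjusted p = 0.00058), at 0.07 with the background removed. Against the hypothalamic list it ran at -0.65 (permutation p = 0.00211, adjusted p = 0.0129), and at 0.29 with the background removed. The astrocyte list mean itself correlated with the background control mean at -0.96, the striatal and pallial list at 0.91 and the hypothalamic list at 0.83. HTR2A also followed the astrocyte list (r = 0.82, permutation p = 2e-05, adjusted p = 0.000464), at 0.28 with the background removed. It followed the ependymal and tanycyte list at 0.65 (permutation p = 0.00103, adjusted p = 0.00853), and at 0.13 with the background removed. With the striatal and pallial list HTR2A correlated at -0.66 (permutation p = 0.00132, adjusted p = 0.00957), and at 0.22 with the background removed. HTR6 followed the striatal and pallial list at 0.72 (permutation p = 0.0004, adjusted p = 0.00422), and at 0.47 with the background removed. It followed the hypothalamic list at 0.71 (permutation p = 0.00049, adjusted p = 0.00437), and at 0.44 with the background removed. Such relations were thus shared between receptors. Choroid plexus, which is rich in HTR2C in rodents, had list means of 5.77 to 6.25 in HR and 5.93 to 6.19 in LR animals over 12 measured markers of 14. Of these 7 had a higher and 5 a lower mean in HR animals (median difference 0.02), among them TTR at 0.47 ± 0.33 and ENPP2 at -0.44 ± 0.31. The list correlated with HTR2C probe set 1 at 0.34 (-0.02 without the 2 arrays of the most extreme list means), which did not pass (permutation p = 0.149, adjusted p = 0.375). With HTR1A it correlated at -0.69 (permutation p = 0.00045, adjusted p = 0.00435), at -0.82 within HR and -0.24 within LR animals. Thalamic markers correlated with HTR7 at 0.34 (rho = 0.11), which did not pass (permutation p = 0.1335, adjusted p = 0.346). Between the groups, 0 of 115 measured genes in the 12 marker lists were higher and 3 (2.61%) lower in HR animals at an unadjusted p under 0.05, beside 1.52% and 2.83% of all genes. These were NEFH, a neurofilament gene, PDE10A, a striatal phosphodiesterase, and FLT1, an endothelial receptor. PDE10A was the only one of the 8 striatal and pallial markers with a lower mean in HR animals (list median 0.12). Their part in the values of the receptors was not tested.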

How the data were processed

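The deposited values are log2 expression values. Per the labels and the study's methods, the authors hybridised biotin-labelled material made from the RNA of individual animals (cRNA in the labels, sense strand cDNA in the methods), processed the scans with GCOS 1.1.1 and normalised them by the robust multichip average, which corrects background, equalises distributions between arrays and summarises probes. A change common to most transcripts is thereby removed, and unspecific signal compresses differences of dim probe sets. The deposited table was used unfiltered. The array's genome build is not given in the sources used here, so no positions are printed.

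After setting aside 123 control probe sets, 47722 were fitted in R 4.3.3 by the linear models of limma 3.58.1 with moderated variances, and the coefficient was HR minus LR. P-values were adjusted by the Benjamini-Hochberg method over all of them, with a threshold of 0.05. The platform annotation named 26426 of them with 1 symbol, 0 with several and 21296 with none. Of 13755 symbols, 13394 were found in RefSeq of Sscrofa11.1 and 266 were updated, which gave 13662 genes. Sequences were not used here. Permutation tests used 100000 permutations. Labels name individual animals, 1 per array, and do not say how the animals of a group were otherwise kept apart. The p-values set the difference between the groups against the spread between these animals. The number of arrays limits the precision.

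The text names every receptor probe set, the 3 genes of smallest p in each pathway list, and the 3 genes most like each receptor on 2 scales. SLC6A4, the markers and the relations singled out beyond these were chosen after their values were seen. The members and lists were chosen with earlier results of these data known. Alternatives were a filter to the 50% of probe sets with the higher mean, median centring, repeated quantile normalisation, array weights, a mean-variance trend, the background covariate, an exact rank-sum test, leaving out arrays, and gene means.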

Additional observations from a re-analysis of the deposited data

Results flagged for a closer look

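HTR1A in HR replicate 9 was 6.05 on the log2 scale, far below the next HR animal at 6.74, and the gap took 0.496 of the range of the 10 HR animals. It was the only such value in the 16 groups of 10 animals examined, and chance marks about 1 group in 20. The same array had the lowest HTR7 (6.14) and the lowest HTR6 (5.32) of the HR animals and a background control mean of 3.74, near the low end. It also had the lowest mean of the 20 arrays over the striatal and pallial markers (6.03), the lowest of the HR animals over the hypothalamic markers (7.59), and the highest of the 20 over the ependymal and tanycyte (7.09) and the choroid plexus markers (6.25). The part of these in its receptor values was not tested.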

How the results depend on the processing

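In limma 0 probe sets passed the adjusted threshold under every alternative run. The count of all probe sets at an unadjusted p under 0.05 was 1091 among the 50% with the higher mean, where fewer were tested, and 3547 with array weights, against 2180. Leaving out 1 array gave 1385 (without HR replicate 5) to 4069 (without HR replicate 8), with 1424 without HR replicate 4 and 3350 without HR replicate 9. Of the 8 receptor probe sets, 0 passed at this level, and 1, HTR7, with median centring, the background covariate or the rank-sum test (exact p = 0.0355). Leaving out 1 array gave 0 to 1: HTR7 without HR replicate 5, LR replicate 1 or LR replicate 6, and HTR1A without HR replicate 9.

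The sign turned for 3 receptors with differences near 0. HTR1B was -0.013 with median centring, -0.0082 with repeated quantile normalisation, -0.042 with array weights and -0.020 without the 7 arrays whose background lay farthest from the mean (by over 1 SD). HTR2A was 0.10 with the background covariate and 0.032 without those 7 arrays. HTR2B was -0.015 with median centring, -0.025 with repeated quantile normalisation and -0.061 by medians in the rank-sum test. Leaving out 1 array gave -0.051 to 0.039 for HTR1B, -0.12 to 0.039 for HTR2A and -0.056 to 0.040 for HTR2B. With the covariate as well, it gave -0.044 to 0.061 for HTR1B and -0.052 to 0.063 for HTR2B. For HTR2A it gave 0.055 to 0.14, so that the sign was turned in all 20 of these fits. The cause was not tested. HTR7 stayed lower in HR animals throughout, from -0.26 to -0.14, and was -0.16 (p = 0.124) without those 7 arrays. HTR1A stayed higher except with the covariate and without HR replicate 8 (-0.014; at most 0.24, without HR replicate 9), and HTR2C probe set 1 stayed lower except with the covariate and without HR replicate 2 (0.0087), with -0.26 without HR replicate 8 and -0.32 by medians in the rank-sum test. HTR6 and HTR2C probe set 2 stayed higher throughout. No paired analysis was possible because the labels give the groups no shared replicate numbers. Signals near the background controls limit most what HTR2B and HTR2C probe set 2 can show. HTR1B, HTR6, HTR1A and HTR7 also lay among the controls on every array, with at most 48, 48, 60 and 60 of the 69 below them. HTR2A and HTR2C probe set 1 had 45 to 69 controls below them.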
